A study of Mus musculus with 12 samples.

Results

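The genes described here encode the invariant chains of the T cell receptor complex, its coreceptors and 3 proteins that set the strength of its signal, and they were chosen by name, as 10 of the 19937 genes measured. Cd3e, Cd3d, Cd3g and Cd247 form the CD3 chains, Cd4, Cd8a and Cd8b1 the coreceptors, and Themis, Cd5 and Cd6 the signal modulators. Each of the 10 had 1 probe set that carried its symbol alone. Expression was measured on 12 Affymetrix gene arrays, 3 in each of 4 labelled groups, with RNA from spleens of F1 mice, strain C57Bl/6 x FVB. The labels describe activated B cells as cultured for 4 days with αCD40 and IL4, activated T cells as cultured for 4 days with αCD3, αCD28 and IL2, resting B cells as CD43 negative cells taken at day 0, and resting T cells as B220 negative cells taken at day 0. All 4 groups thus came from whole spleen by magnetic sorting, and the antibodies that the methods give for removing cells from the B cell fraction included one against CD5, the protein of 1 of the 10 genes. Whether a group's arrays stand for different mice is not stated, and the p-values then measure only how these arrays spread, which may be technical.

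On a T cell the antigen receptor cannot signal by itself. Its antigen-binding chains are carried to the surface together with the CD3ε, CD3δ, CD3γ and ζ chains, whose tails are phosphorylated by the kinase Lck and then bind the kinase ZAP-70. CD4 and CD8 bind MHC molecules of class II and class I and bring Lck to the receptor, mature T cells keep one coreceptor or the other, and B cells use a separate receptor built around Cd79a and Cd79b.

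The lineage genes ran against the labels, so each group is named below by its label only and no direction is read as one of T cells or of B cells. Ms4a1, which encodes the B cell surface protein CD20, averaged 4.46 ± 0.32 log2 on the arrays labelled activated B, 11.95 ± 0.05 on those labelled activated T, 8.52 ± 0.87 on those labelled resting B and 10.64 ± 0.04 on those labelled resting T (SD, n = 3 each). Cd79a, the signalling chain of the B cell receptor, averaged 4.50 ± 0.49, 11.64 ± 0.14, 8.27 ± 0.51 and 10.45 ± 0.28 log2 in the same order of groups. Mki67, a gene of dividing cells, averaged 10.58 ± 0.01, 6.31 ± 0.54, 6.56 ± 0.42 and 10.18 ± 0.08, so that it was high on the arrays labelled activated B and on those labelled resting T. Summed as a mean over 9 measured B cell markers, the level was 4.89 to 5.13 log2 on the arrays labelled activated B, with Cd79a, Ms4a1, Blnk, Ebf1 and Bank1 at or below background, 11.05 to 11.18 on those labelled activated T, 7.08 to 8.35 on those labelled resting B and 9.46 to 9.83 on those labelled resting T. The background was set at 5.21 log2, which is the 95th percentile of the mean levels of 1027 olfactory receptor genes. Array medians lay between 5.50 and 5.68 log2. Since these are bulk samples, fewer cells of a type and less RNA per cell cannot be told apart, and since signal near background is compressed, a difference from a level near 5.21 understates the change.

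Each of the members was higher on the 6 arrays labelled B than on the 6 labelled T, where 8 of 10 means for activated T and 5 of 10 for resting T lay above background. Cd3e, a chain shared by both CD3 dimers, read 9.92, 10.19 and 10.10 log2 on the arrays labelled activated B, 6.36, 6.19 and 6.74 on those labelled activated T, 10.82, 10.35 and 10.64 on those labelled resting B and 5.60, 6.32 and 5.88 on those labelled resting T. Every array labelled B lay above every array labelled T, while the arrays labelled activated T and resting T overlapped. Cd3d, the partner of Cd3e in the first of these dimers, read 9.66, 9.84 and 9.54 log2 on the arrays labelled activated B, 4.48, 5.07 and 5.58 on those labelled activated T, 9.90, 10.12 and 10.10 on those labelled resting B and 4.78, 4.81 and 4.94 on those labelled resting T. It was above background on 1 of the 3 arrays labelled activated T and on 0 of the 3 labelled resting T. Cd3g, which forms the other dimer with Cd3e, read 11.47, 11.61 and 11.53 log2 on the arrays labelled activated B, against 5.64, 5.98 and 7.57 on those labelled activated T. The arrays labelled resting B gave 11.69, 11.76 and 11.85 log2 for Cd3g, and those labelled resting T 4.74, 5.49 and 6.08. The highest value on an array labelled T was thus below the lowest on an array labelled B, although 1 of them, activated T replicate 6, stood well above the others. Cd247, which encodes the ζ chain with the longest signalling tail of the complex, read 7.62, 7.83 and 7.52 log2 on the arrays labelled activated B, 4.90, 5.33 and 5.49 on those labelled activated T, 8.14, 8.18 and 8.32 on those labelled resting B and 5.27, 4.96 and 5.22 on those labelled resting T. Its gap between arrays labelled B and T was the narrowest of the 10 members.

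**Figure D1:**
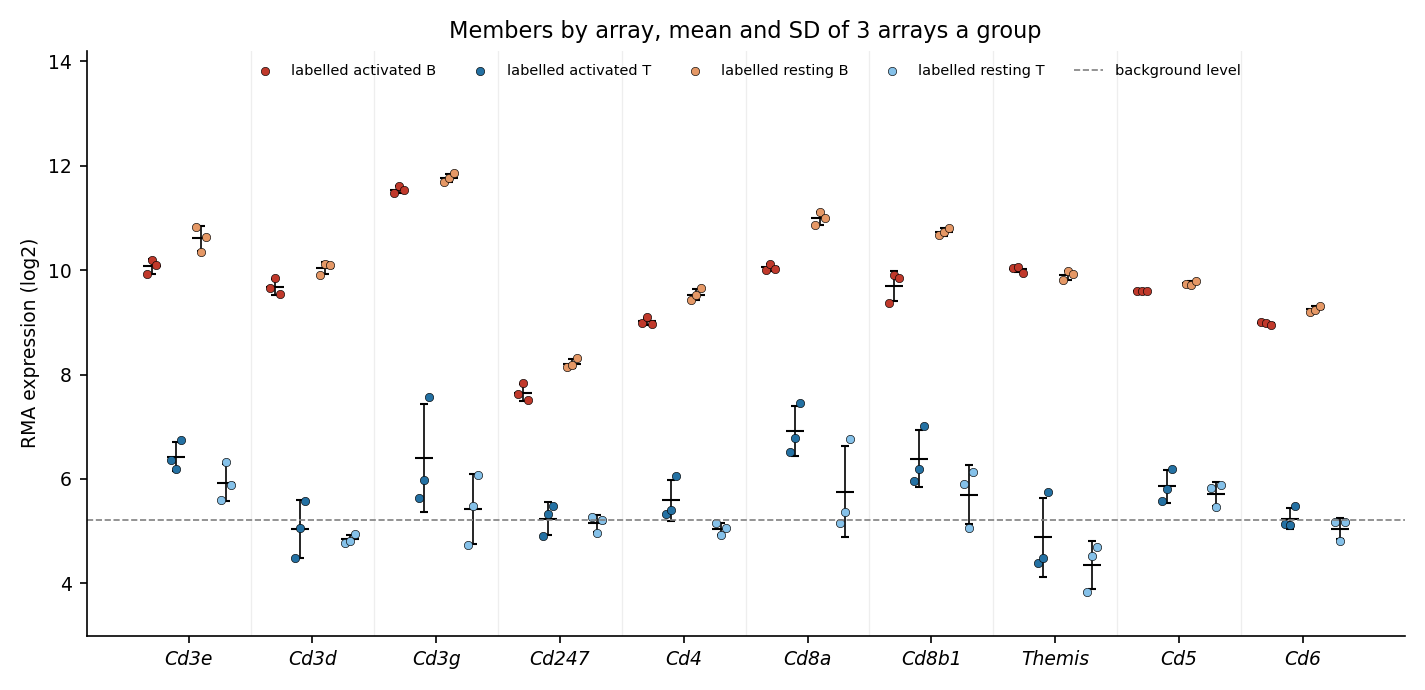
Level of each of the 10 genes on each array (vertical axis, RMA expression in log2), with the mean and SD of the 3 arrays of each labelled group and the background of 5.21 log2 as a dashed line. For all 10 genes the arrays labelled activated B and resting B sit at 7.52 log2 or above and those labelled activated T and resting T at 7.57 or below, with no overlap within a gene.

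Both coreceptors were read well above background on every array labelled B. Cd4 had 8.99, 9.11 and 8.97 log2 on the arrays labelled activated B, 5.33, 5.40 and 6.05 on those labelled activated T, 9.43, 9.53 and 9.65 on those labelled resting B and 5.15, 4.92 and 5.06 on those labelled resting T. It was the only member whose arrays separated all 4 labelled groups, in the order resting B, activated B, activated T, resting T. Cd8a, the chain found in every form of CD8, averaged 10.05 ± 0.07 log2 on the arrays labelled activated B (SD, n = 3, highest 10.12), and read 6.52, 6.79 and 7.45 on those labelled activated T, 10.86, 11.12 and 10.99 on those labelled resting B and 5.16, 5.36 and 6.76 on those labelled resting T. Here 1 array labelled resting T, number 6, lay among those labelled activated T. Cd8b1, the β chain of the CD8 of conventional T cells, had 9.37, 9.90 and 9.85 log2 on the arrays labelled activated B, 5.96, 6.19 and 7.01 on those labelled activated T, 10.67, 10.73 and 10.81 on those labelled resting B and 5.90, 5.06 and 6.14 on those labelled resting T.

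For each of the 3 modulators, the means on the arrays labelled activated B and resting B lay close together, within 0.28 log2. Themis, a protein that binds the adaptor Grb2 and is needed for T cell development in the thymus, read 10.04, 10.05 and 9.95 log2 on the arrays labelled activated B, 4.40, 4.48 and 5.75 on those labelled activated T, 9.81, 9.98 and 9.92 on those labelled resting B and 3.83, 4.53 and 4.70 on those labelled resting T. It was the only member with a higher mean on the arrays labelled activated B than on those labelled resting B, and these arrays overlapped. Cd5, a scavenger-type surface receptor that dampens receptor signals, read 9.60 log2 on each of the 3 arrays labelled activated B, 5.57, 5.81 and 6.20 on those labelled activated T, 9.73, 9.71 and 9.80 on those labelled resting B and 5.82, 5.46 and 5.88 on those labelled resting T. Cd6, its relative, binds ALCAM on other cells and averaged 8.98 ± 0.03 log2 on the arrays labelled activated B (SD, n = 3, lowest 8.94), and read 5.13, 5.12 and 5.48 on those labelled activated T, 9.20, 9.23 and 9.32 on those labelled resting B and 5.17, 4.82 and 5.17 on those labelled resting T. For Cd5 and Cd6 the arrays labelled B and T were more than 3 log2 apart, and within the label T they overlapped.

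Several members are neighbours on the chromosome. In RefSeq's annotation of GRCm38.p6 the protein-coding genes Cd3g, Cd3d and Cd3e follow each other on chromosome 9, Cd8b1 and Cd8a on chromosome 6, and Cd5 and Cd6 on chromosome 19. The starts of Cd3d and Cd3g are 1355 bases apart, on opposite strands, and that of Cd3e lies 27825 bases from the start of Cd3d. Promoters were given for 7 of the 10 genes, and 4 of them are shown, those of the CD3 genes that are neighbours and that of Cd8a. Cd8a had the widest difference between the activation changes. Each runs from 250 bases before to 50 bases after the start, 5′ to 3′ on the gene's strand, with E boxes (CANNTG, the letters that basic helix-loop-helix factors bind, the same on both strands) in capitals. They are chr9:44981536-44981835 on the plus strand for Cd3d, chr9:44980382-44980681 on the minus strand for Cd3g, chr9:45009562-45009861 on the minus strand for Cd3e and chr6:71373177-71373476 on the plus strand for Cd8a.
Cd3d: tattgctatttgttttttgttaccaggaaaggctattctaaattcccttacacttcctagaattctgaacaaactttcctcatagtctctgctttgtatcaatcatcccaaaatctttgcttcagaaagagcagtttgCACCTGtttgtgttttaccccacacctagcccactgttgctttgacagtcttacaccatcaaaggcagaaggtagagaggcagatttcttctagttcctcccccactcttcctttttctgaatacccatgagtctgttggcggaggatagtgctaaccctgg
Cd3g: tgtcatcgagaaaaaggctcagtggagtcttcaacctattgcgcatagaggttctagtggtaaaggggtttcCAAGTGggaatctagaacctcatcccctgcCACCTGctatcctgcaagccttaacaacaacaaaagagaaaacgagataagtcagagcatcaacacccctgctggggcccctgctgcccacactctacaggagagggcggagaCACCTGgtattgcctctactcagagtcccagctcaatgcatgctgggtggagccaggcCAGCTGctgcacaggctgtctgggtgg
Cd3e: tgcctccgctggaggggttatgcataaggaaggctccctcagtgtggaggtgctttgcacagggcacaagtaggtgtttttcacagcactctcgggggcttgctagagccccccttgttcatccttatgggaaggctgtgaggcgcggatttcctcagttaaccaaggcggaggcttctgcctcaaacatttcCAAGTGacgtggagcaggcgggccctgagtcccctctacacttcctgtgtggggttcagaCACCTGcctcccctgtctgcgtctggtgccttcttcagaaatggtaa
Cd8a: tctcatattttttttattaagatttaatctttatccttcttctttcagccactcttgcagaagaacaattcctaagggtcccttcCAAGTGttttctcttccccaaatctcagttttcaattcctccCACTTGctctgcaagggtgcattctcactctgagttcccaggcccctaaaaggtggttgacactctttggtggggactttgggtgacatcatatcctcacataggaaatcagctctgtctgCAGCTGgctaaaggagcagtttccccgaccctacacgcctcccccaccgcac
The letters CANNTG stood 1 time in the window of Cd3d, 4 times in that of Cd3g, 2 times in that of Cd3e and 3 times in that of Cd8a. They stood at least once in 72.3% of the 32544 promoters of that length, with a mean of 1.39 matches, so that their presence does not set these genes apart.

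Between the labelled resting groups, all 10 members were higher on the arrays labelled resting B than on those labelled resting T, in limma's fit across all genes with Benjamini-Hochberg adjustment at a threshold of 0.05. Of all genes, 16.1% were called higher in this comparison and 19.0% lower. The differences ran from 3.06 ± 0.14 log2 for Cd247 (SE, 8.35-fold, adjusted p = 2.4e-11) to 6.33 ± 0.37 for Cd3g (80.5-fold, adjusted p = 4.9e-10). Their median was 4.85 log2, and that of all genes was 0.00. Cd8a differed by 5.23 ± 0.30 log2 (adjusted p = 4.6e-10), Cd4 by 4.49 ± 0.15 (adjusted p = 9.0e-13) and Themis by 5.55 ± 0.27 (adjusted p = 5.9e-11). The arrays of the groups did not overlap for any of the 10, as for 19.7% of all genes in that direction.

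The labelled activated groups gave the same order. All 10 members were higher on the arrays labelled activated B than on those labelled activated T, in a comparison where 21.8% of all genes were called higher and 18.9% lower. Cd3g and Themis each differed by 5.14 log2, with standard errors of 0.37 and 0.27 (adjusted p = 4.6e-09 and 9.0e-11), and Cd247 by 2.41 ± 0.14 (adjusted p = 2.7e-10). The median was 3.69 log2, against -0.03 for all genes, and the highest adjusted p of the 10 was 2.0e-07, for Cd8a at 3.12 ± 0.30 log2. None of the 10 overlapped between these groups, as for 25.5% of all genes.

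Across lineage labels and culture at once, the members kept these directions. All 10 were lower on the arrays labelled activated T than on those labelled resting B, with log2 fold changes of -5.37 (Cd3g) to -2.97 (Cd247). Their median was -4.12, against 0.01 for all genes, with a highest adjusted p of 2.4e-08. Of all genes 9.68% were called lower there, and 15.5% had arrays without overlap in that direction, as had all 10 members. All 10 were higher on the arrays labelled activated B than on those labelled resting T, by 2.50 log2 for Cd247 to 6.10 for Cd3g, with a median of 4.07 against -0.01 and a highest adjusted p of 8.9e-09. There 13.0% of all genes were called higher and 18.9% did not overlap in that direction, as against 10 of 10 members. These 4 comparisons share their arrays in pairs and are not independent of each other.

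The coreceptors and 2 of the CD3 chains were lower on the arrays labelled activated B than on those labelled resting B. Cd8b1 differed most, at 9.70 ± 0.29 log2 on the arrays labelled activated B and 10.73 ± 0.07 on those labelled resting B (SD, n = 3 each), a log2 fold change of -1.03 ± 0.26 (SE, 2.04-fold lower, adjusted p = 0.00408). Cd8a changed by -0.94 ± 0.30 (adjusted p = 0.0206), Cd247 by -0.56 ± 0.14 (adjusted p = 0.00354), Cd3e by -0.54 ± 0.17 (adjusted p = 0.0215) and Cd4 by -0.51 ± 0.15 (adjusted p = 0.0114). These were 5 of 10 members, with 0 higher, in a comparison where 16.7% of all genes were called lower and 19.7% higher. The members' median was -0.44 log2 and that of all genes -0.02. For 9 of the 10, all but Themis, the arrays labelled activated B lay wholly below those labelled resting B, as for 22.6% of all genes. The other 5 did not pass the test, with -0.36 log2 for Cd3d (95% interval -0.76 to 0.04), -0.28 for Cd6 (-0.52 to -0.03), -0.23 for Cd3g (-1.01 to 0.55), -0.15 for Cd5 (-0.44 to 0.15) and 0.11 for Themis (-0.46 to 0.69). On these arrays the mean of 6 NK cell markers was 4.75 to 5.04 log2 for activated B and 6.79 to 7.32 for resting B, that of the 9 B cell markers 4.89 to 5.13 and 7.08 to 8.35, that of 6 macrophage and monocyte markers 4.76 to 4.84 and 7.21 to 7.81, that of 6 dendritic cell markers 4.78 to 4.99 and 6.09 to 6.35, and that of 4 erythroid and platelet markers 4.98 to 5.15 and 5.55 to 5.74. The part of these other cells in the lower member levels was not tested. On the arrays labelled activated B, the NK markers Ncr1, Klrb1c and Klre1 had means at or below background. So had the macrophage markers Adgre1, Lyz2, Itgam and Mpeg1 and the dendritic cell markers Flt3, Xcr1, Clec9a and Siglech. The NK markers Klrd1 (7.59 log2), Eomes (5.86) and Fcgr3 (5.25) had means above it there. The macrophage markers Cd68 (6.57) and Csf1r (5.23) did too, as did the dendritic cell markers Zbtb46 (5.66) and Itgax (5.34). Klre1 was also below background on the arrays labelled resting B.

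Of these 5 calls, 2 depended on the setting or on single arrays. With every probe set on its own, neither Cd3e (adjusted p = 0.0568) nor Cd8a (0.0634) passed, and Cd8a did not with an intensity trend and robust settings (0.11). Cd3e lost its call without activated B replicate 1 (adjusted p = 0.0885), resting B replicate 1 (0.107) or resting B replicate 3 (0.0578), and Cd8a without activated B replicate 1 (0.0564), activated B replicate 3 (0.0516) or resting B replicate 2 (0.0632). Without activated B replicate 1 the number of members called was 3. Cd3d passed without activated T replicate 4 (0.0364) or 6 (0.0449), and Cd6 without activated T replicate 6 (0.0452) or resting T replicate 5 (0.0439), arrays that enter this comparison only through the shared spread. Under other settings of normalization, filter, groups fitted or array weights, Cd6 passed in 6 (0.00108 to 0.0483) and Cd3d in 2 (0.0182 and 0.0206).

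The gap between the coreceptor genes was smaller on the arrays labelled activated B. Cd8a minus Cd4, taken within each array, was 1.01, 1.01 and 1.05 log2 on the arrays labelled activated B and 1.43, 1.59 and 1.35 on those labelled resting B. The means were 1.02 ± 0.02 and 1.46 ± 0.12 (SD, n = 3 each), a difference of -0.43, with no overlap. An exact two-sided permutation test of 3 against 3 arrays gave p = 0.1, which is the smallest value it can give. Both probe sets read well above background on these arrays, and the share of cells with either coreceptor was not measured.

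On the arrays labelled T the members lay lower, and 3 of the 10 were higher on the activated arrays. Cd8a was higher on the arrays labelled activated T, at 6.92 ± 0.48 log2 against 5.76 ± 0.87 on those labelled resting T (SD, n = 3 each), a log2 fold change of 1.16 ± 0.30 (SE, 2.24-fold, adjusted p = 0.0059). Cd4 was higher by 0.55 ± 0.15 (adjusted p = 0.00787) and Cd3e by 0.50 ± 0.17 (adjusted p = 0.0362). Cd4 lay above background on 0 of the 3 arrays labelled resting T, at a mean of 5.04 log2, and averaged 5.59 on those labelled activated T. Cd8a, Cd4 and Cd3e were 3 of 10 members, with 0 lower, in a comparison where 15.9% of all genes were called higher and 17.8% lower. With an intensity trend and robust settings Cd8a (adjusted p = 0.0564) and Cd3e (0.0576) did not pass, nor did Cd3e with every probe set on its own (0.0813) or with the 2 groups alone (0.0549). The median of the members was 0.51 log2 and that of all genes 0.02. Cd3g at 0.96 (95% interval 0.19 to 1.74, adjusted p = 0.0538) and Cd8b1 at 0.69 (0.14 to 1.23, adjusted p = 0.0512) did not pass, nor did Themis at 0.52, Cd3d at 0.20, Cd6 at 0.19, Cd5 at 0.14 or Cd247 at 0.09. The arrays were free of overlap for 1 of 10 members, Cd4, a smaller share than the 21.2% of all genes in that direction. With the replicate number as a block, 6 members were called, the same 3 with Cd3g (adjusted p = 0.000135), Cd8b1 (0.0048) and Themis (0.0189).

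The arrays numbered 6 stood apart in both groups labelled T. Among the arrays labelled activated T, replicate 6 was the highest for 10 of 10 members, and among those labelled resting T replicate 6 was the highest for 7 of 10. The mean of the 10 members was 5.43, 5.64 and 6.33 log2 on the arrays labelled activated T numbered 4, 5 and 6, and 5.14, 5.17 and 5.58 on those labelled resting T. The NK cell markers were also highest on replicate 6, with 5.21 to 6.13 log2 on the arrays labelled activated T and 4.47 to 4.96 on those labelled resting T, and the B cell markers were lowest on replicate 6 of both groups, at 11.05 and 9.46. The macrophage and monocyte markers were 6.86 to 7.30 log2 on the arrays labelled activated T and 6.18 to 6.40 on those labelled resting T, the dendritic cell markers 6.04 to 6.24 and 5.13 to 5.34, both lists highest on replicate 6, and the dividing cell markers 5.54 to 6.18 and 9.63 to 9.72. The part of other cells in these low levels was not tested. Without activated T replicate 6 the members' median was 0.20 log2, Cd4 was higher by 0.32 (adjusted p = 0.0335) and Cd3e lost its call (0.186). Without both arrays numbered 6, Cd8a differed by 1.40 log2 (adjusted p = 1.2e-06) and Cd3g by 0.70 (0.0114), while Cd4 at 0.33 (0.0529) and Cd3e at 0.32 (0.294) did not pass. Cd3e also lost its call without activated T replicate 4 (0.0556), resting T replicate 4 (0.191, at 0.33 log2, where the members' median was 0.29) or resting T replicate 6 (0.091). Calls were gained by Cd3g without activated T replicate 4 (0.00929) or 5 (0.0385) or resting T replicate 6 (0.0177), by Cd8b1 without activated B replicate 1 (0.049), activated T replicate 4 (0.018) or resting T replicate 6 (0.0175), and by Cd3d without activated T replicate 4 (0.0174). Beside the replicate block, Cd3g passed under 4 other settings of normalization, filter or array weights (0.0323 to 0.0404) and Cd8b1 under 4 of normalization or filter (0.025 to 0.0408).

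**Figure D2:**
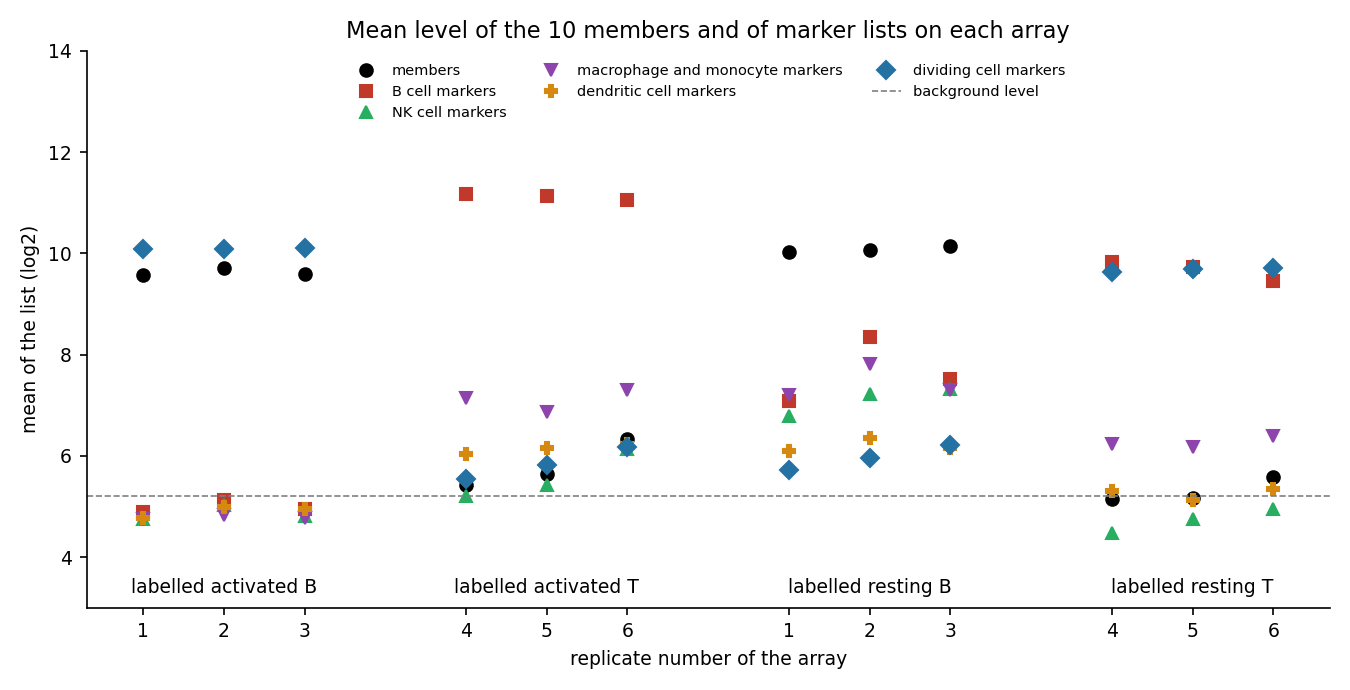
Mean log2 level of the 10 members and of 5 marker lists on each of the 12 arrays (vertical axis), by labelled group and replicate number (horizontal axis), with the background as a dashed line. The members lie at 9.57 to 10.14 on the arrays labelled B and at 5.14 to 6.33 on those labelled T, and replicate 6 is the highest for the members in both groups labelled T.

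The difference between activated and resting itself differed between the lineage labels for 6 of the 10 members. The value is the change in the arrays labelled B minus the change in those labelled T, and all 10 values were negative. Mki67 was higher on the arrays labelled activated B than on those labelled resting B, by 4.02 log2. On the arrays labelled activated T it was lower than on those labelled resting T, at -3.87. The signs of the members thus follow the labels only, and the part of division in these values was not tested. Cd8a gave -2.10 ± 0.43 log2 (SE, adjusted p = 0.000582), Cd8b1 -1.72 ± 0.37 (adjusted p = 0.000877), Cd4 -1.06 ± 0.21 (adjusted p = 0.00047) and Cd3e -1.03 ± 0.24 (adjusted p = 0.00221). Cd247 at -0.65 ± 0.20 (adjusted p = 0.012) and Cd6 at -0.47 ± 0.16 (adjusted p = 0.0292) passed as well, so that all 3 coreceptor genes, 2 of 4 CD3 chains and 1 of 3 modulators did. In this comparison 20.9% of all genes were called lower and 21.9% higher, and the members' median was -0.84 log2 against -0.03 for all genes, or -0.56 without activated T replicate 6. Cd3g at -1.19 (adjusted p = 0.0782), Cd3d at -0.56 (0.106), Themis at -0.41 (0.442) and Cd5 at -0.29 (0.269) did not pass. With the replicate block Cd3d (0.0431) and Cd3g (0.000293) were called too. Quantile normalization added Cd3d (0.0267) and Cd5 (0.043), centring on the 75th percentile added Cd3d (0.049), and array weights added Cd3g (0.0426). Cd6 lost its call without activated B replicate 3 (0.0601), activated T replicate 6 (0.0844), resting B replicate 3 (0.0642) or resting T replicate 5 (0.0831), Cd3d gained one without activated T replicate 4 (0.00192), and Cd3g without activated T replicate 4 (0.016) or resting T replicate 6 (0.0274).

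**Figure D3:**
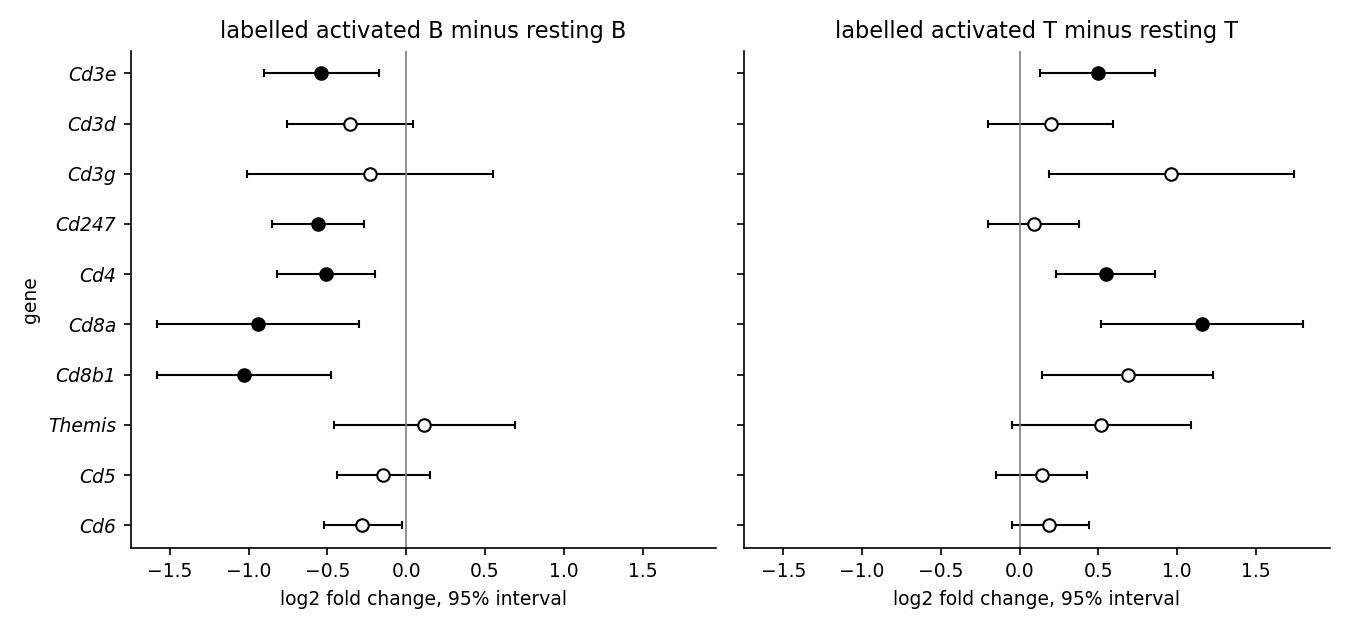
Log2 fold change of each of the 10 genes with its 95% interval, for the arrays labelled activated B minus resting B (left) and activated T minus resting T (right), with filled points where the adjusted p was under 0.05. The 5 filled points on the left lie below 0, at -1.03 to -0.51, and the 3 on the right above 0, at 0.50 to 1.16.

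The kinases and adaptors that carry the receptor's signal inward ran largely with the members. Of 18 genes listed, 16 were measured, and between the resting labels all 16 were higher on the arrays labelled resting B, by 1.40 (Sit1) to 5.03 log2 (Fyb), median 3.30. Of all genes, 16.1% were called higher in that comparison. Zap70, the kinase that docks on the phosphorylated CD3 and ζ tails, averaged 8.88 ± 0.06 log2 on the arrays labelled activated B, 5.40 ± 0.06 on those labelled activated T, 8.73 ± 0.13 on those labelled resting B and 5.31 ± 0.13 on those labelled resting T (SD, n = 3 each). Lat, the membrane adaptor that ZAP-70 phosphorylates, averaged 10.06 ± 0.04, 6.21 ± 0.53, 10.84 ± 0.08 and 6.02 ± 0.04 log2 in the same groups. The kinase gene Prkcq differed by 4.99 log2 between resting B and resting T (adjusted p = 3.3e-10), Fyb by 5.03 (adjusted p = 2.4e-12) and Fyn by 1.67 (adjusted p = 6.6e-09). Between activated B and activated T, 15 of the 16 passed as higher and 1 as lower, at a median of 1.74 log2. Of all genes, 21.8% were called higher and 18.9% lower there. All 16 were lower on the arrays labelled activated T than on those labelled resting B (median -3.15), in a comparison where 9.68% of all genes were called lower. On the arrays labelled activated B, 14 were higher than on those labelled resting T (median 2.45), where 13.0% of all genes were called higher. The 1 lower gene between activated B and activated T was Txk, named after its values were seen, at -0.60 (adjusted p = 0.0427). Its call was lost with every probe set on its own (0.094), with the 2 groups alone (0.0611), with an intensity trend (0.111) and without activated B replicate 1 (0.172) or 3 (0.139), activated T replicate 5 (0.0599) or 6 (0.246), resting B replicate 2 (0.0504) or resting T replicate 5 (0.0525).

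Within the labels B, 9 of the 16 signalling genes were lower on the activated arrays and 0 higher, with a median of -0.63 log2. Of all genes, 16.7% were called lower and 19.7% higher there. Txk, a kinase of the Tec family, averaged 5.89 ± 0.40 log2 on the arrays labelled activated B and 10.31 ± 0.19 on those labelled resting B, a change of -4.42 (adjusted p = 1.2e-10). The receptor-associated adaptor Trat1 changed by -1.94 (adjusted p = 5.3e-05), Sit1 and Fyn by -1.21 each (adjusted p = 2.0e-08 and 3.7e-07), while Zap70 at 0.15 (adjusted p = 0.294) did not pass. Within the labels T, 6 were higher on the activated arrays and 1 lower, with a median of 0.19, against 15.9% and 17.8% of all genes. The adaptor Grap2 was higher by 2.52 log2 (adjusted p = 4.5e-11), the phosphatase gene Ptpn22 by 1.57 (adjusted p = 1.0e-07), and Lcp2, which encodes the adaptor SLP-76, was lower, at -2.04 (adjusted p = 2.8e-09). In the difference between these changes, 11 of the 16 were negative past the threshold and 1 positive, against 20.9% and 21.9% of all genes.

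**Figure D4:**
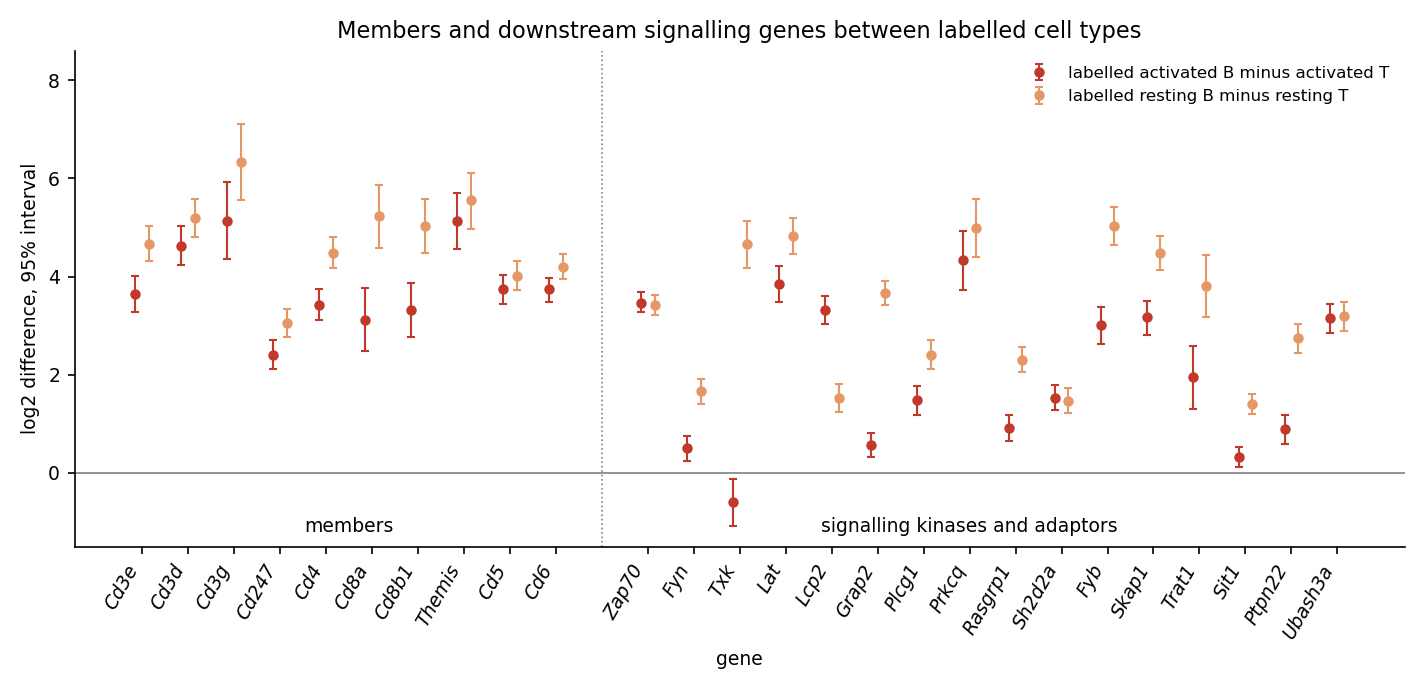
Log2 difference with its 95% interval for the 10 members and the 16 measured signalling genes, for the arrays labelled activated B minus activated T and resting B minus resting T. All 10 members and 15 of the 16 signalling genes have positive differences in both comparisons, and Txk alone is below 0 in one of them, at -0.60.

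Partners and relatives of the members were split between the labels. Of 12 genes, 5 were higher and 4 lower on the arrays labelled resting B than on those labelled resting T, and 3 higher and 7 lower on those labelled activated B than on those labelled activated T. Of all genes, 16.1% were higher and 19.0% lower in the first of these comparisons, 21.8% higher and 18.9% lower in the second. The counts include Cd5l, which was above background on 0 of the 3 arrays of each group. They also include Cd163, above it on 2 of the 3 arrays labelled resting B and 0 of the 3 labelled resting T. Cd28, the costimulatory receptor of T cells, averaged 10.78 ± 0.13 log2 on the arrays labelled activated B, 5.51 ± 0.59 on those labelled activated T, 9.98 ± 0.18 on those labelled resting B and 5.57 ± 0.45 on those labelled resting T. Cd2, an adhesion receptor, was high in 3 of the 4 groups, at 10.80 ± 0.07, 10.50 ± 0.15, 11.12 ± 0.08 and 7.27 ± 0.17 log2 in that order. It was called higher on the arrays labelled activated B than on those labelled activated T, by 0.30 (adjusted p = 0.0334). That call was lost with each array centred on its median (0.0515), with quantile normalization (0.368) and with every probe set on its own (0.0504). It was also lost when single arrays were left out, as without activated B replicate 1 (0.0766). Themis2, the relative of Themis used in B cells, ran opposite to it, at 5.64 ± 0.26, 9.76 ± 0.03, 7.45 ± 0.33 and 9.84 ± 0.11 log2, and its log2 fold change was -4.12 between activated B and activated T (adjusted p = 1.2e-12). For Cd72, a B cell surface protein, it was -4.76 (adjusted p = 4.8e-13).

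Transcription factors that set coreceptor and T lineage genes had smaller differences by their median. Of 12 measured, 11 were higher between resting B and resting T (median 1.08 log2). On the arrays labelled activated B, 6 were higher and 3 lower than on those labelled activated T. Of all genes, 16.1% were called higher in the first of these comparisons, and 21.8% higher and 18.9% lower in the second. Zbtb7b, which directs cells to the CD4 lineage, averaged 7.89 ± 0.06 log2 on the arrays labelled activated B, 7.77 ± 0.07 on those labelled activated T, 8.19 ± 0.11 on those labelled resting B and 7.28 ± 0.05 on those labelled resting T. Runx3, which silences Cd4 in the CD8 lineage, averaged 7.90 ± 0.14, 7.28 ± 0.10, 7.68 ± 0.22 and 7.32 ± 0.32, and its difference between resting B and resting T of 0.37 did not pass (adjusted p = 0.0645), though it did with centring on the 75th percentile (0.0377), quantile normalization (0.0312), either filter on dim genes (0.0436 and 0.0434) or an intensity trend (0.0482), and without resting B replicate 2 (0.0286) or resting T replicate 5 (0.0149). Gata3 and Bcl11b, needed for T cell identity, were higher by 3.32 (adjusted p = 3.7e-11) and 2.98 (adjusted p = 7.1e-11) on the arrays labelled resting B than on those labelled resting T. Gata3 was higher by 1.85 on the arrays labelled activated B than on those labelled resting B (adjusted p = 5.4e-08), and Tox was lower, at -2.18 (adjusted p = 2.0e-09). In that comparison 2 of the 12 factors were higher and 7 lower, against 19.7% and 16.7% of all genes. Most of the ligands and B cell counterparts ran the other way. Of 10 measured genes, 8 were lower on the arrays labelled resting B than on those labelled resting T. On those labelled activated B, 9 were lower than on those labelled activated T and 1 was higher. In these comparisons 19.0% and 18.9% of all genes were called lower, and in the second 21.8% were called higher. The 1 higher gene was B2m, an MHC gene of this list, at 0.25 log2 (adjusted p = 0.0467). Its call was lost with each array centred on its median (0.0535) and with quantile normalization (0.161). Between the resting labels B2m did not pass, at -0.11 (adjusted p = 0.429). Cd74, the invariant chain of the MHC class II molecules that CD4 binds, averaged 5.90 ± 0.50 log2 on the arrays labelled activated B, 12.54 ± 0.05 on those labelled activated T, 10.37 ± 0.40 on those labelled resting B and 12.09 ± 0.12 on those labelled resting T. The 4 markers of immature thymocytes, which carry both coreceptors on 1 cell, averaged 4.24 to 4.61 log2 over the list, with Rag1, Rag2 and Dntt at or below background in every group. The other one, Ptcra, was above background on all 12 arrays, at 5.66 log2 for activated B, 5.77 for activated T, 5.73 for resting B and 5.67 for resting T. The antigen-binding chains of the receptor were not analysed as a list, since 0 of its 13 genes were matched. Trbv1, a gene segment of such a chain, was not matched through that list but was measured, and it is named below by its profile.

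By profile over the 12 arrays, the gene most like the members' mean was Prkch, a protein kinase C gene, with a root mean square difference of 0.17 log2 after each gene was centred on its own mean. It was followed by Lat at 0.20, Prkcq at 0.31, Cd27 at 0.32, Skap1 at 0.36, Fyb at 0.37, Trbv1 at 0.38 and Cxcr6 at 0.40, among 12857 genes above background in at least 1 group. Prkch averaged 9.62 log2 on the arrays labelled activated B, 5.86 on those labelled activated T, 10.22 on those labelled resting B and 5.23 on those labelled resting T. The members themselves lay between 0.21 for Cd4 and 0.81 for Cd247 from that mean, so that some members were farther from it than these other genes. The measure is a description of 12 arrays that fall into 4 labelled groups.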

How the data were processed

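Total RNA of 12 samples was labelled with biotin using a kit for whole transcripts and hybridised to Affymetrix mouse gene arrays. The deposited values are in log2, 1 per probe set and array, and the submitters' notes credit them to RMA, whose version is not given in the sources used here. RMA brings the probe intensities of the arrays to 1 distribution, so a shift of most genes one way cannot be seen, and arrays hold no read depth. The deposited values per probe set still differed slightly between arrays, with medians of 5.50 to 5.68 log2. The number of arrays limits the precision.

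Of 34760 probe sets, 21640 had 1 gene symbol, 1321 several and 11799 no gene named here. For 954 genes with several probe sets the one with the highest mean was taken, which gave 19937 genes. Gene IDs of 21553 probe sets were found in the RefSeq table, and 0 symbols changed. At most 0.069% of the values of any pair of arrays were identical.

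Groups came from the labels. One limma 3.58.1 fit (lmFit and eBayes, R 4.3.3) held all 12 arrays with a mean per group, with 8 residual degrees of freedom and 7.8 prior, and p-values were adjusted by Benjamini and Hochberg over all genes. All 6 pairs of groups and the difference between the activation changes were tested. The members and lists were chosen with earlier results of these data known. Named were all 10 members, of each list the first 2 measured genes and the 3 with the largest change, Cd79a, Ms4a1 and Mki67, and the 8 genes most like the members' mean. Not every such gene is printed. The list of receptor chain genes had 0 of 13 genes matched. Sequences came from RefSeq's table for GRCm38.p6. Figures used matplotlib 3.10.9 under Python 3.11.15, with pandas 2.3.3 and numpy 2.4.6.

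Replicate numbers 4 to 6 are shared by the groups labelled T and 1 to 3 by those labelled B. Once group means were taken off, arrays of the same number correlated over 12170 genes with r = 0.22, 0.16 and 0.23 in the groups labelled T, where the numbers were taken to pair the arrays, from the data and not the labels. Leaving out 4 sex-linked genes gave r = 0.02, 0.09 and 0.19. These 4 genes thus differed between arrays within the groups labelled T, and whether the mice differed in sex was not tested. Without the 4 genes, arrays of different numbers gave up to 0.14, for activated T replicate 4 with resting T replicate 5. The correlations thus do not settle whether the numbers pair the arrays, and calls with the replicate block rest on that assumption.

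On simulated data, for activated B minus resting B over 19937 genes, the calls took in 54% of 50 genes with a true change of 0.5 log2, 99% of 100 at 1 and 100% of 50 at 2, and 10 of 186 calls were false. For resting B minus resting T these shares were 46%, 97% and 100%. Only these genes were changed, with independent noise and no floor. In the data 16.7% of all genes were called lower and 19.7% higher for activated B minus resting B, so recovery there may differ. Alternatives were leaving out each array, a replicate block, array weights, robust settings with an intensity trend, a fit of the compared groups alone, other uses of probe sets (their mean, or each tested), 2 filters on dim genes, and other scalings (quantile, median and 75th percentile). Leaving out both arrays numbered 6 of the groups labelled T was added after seeing the data.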

Additional observations from a re-analysis of the deposited data

Results flagged for a closer look

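For 6 members the activation difference was itself different between the lineage labels by the interaction term of limma's fit, and the value is the change in the arrays labelled B minus that in the arrays labelled T. Cd8a gave -2.10 log2, Cd8b1 -1.72, Cd4 -1.06, Cd3e -1.03, Cd247 -0.65 and Cd6 -0.47, with adjusted p between 0.00047 and 0.0292. The lineage genes ran against the labels. Mki67 ran against them within the label T, at 6.31 log2 for activated and 10.18 for resting. Within the label B it ran with them, at 10.58 and 6.56. The sign of the 6 values therefore follows the labels only.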

How the results depend on the processing

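In the 4 comparisons between arrays labelled B and arrays labelled T, 10 of 10 members were called in the same direction under every alternative run, and no member's called value changed sign. For activated B minus resting B, where 5 members were called, 3 were called with every probe set on its own, and 3 to 7 when each array was left out in turn. For activated T minus resting T, where 3 were called, 5 were called with each array centred on its median, 5 with only genes whose mean was above background, 5 with only genes above background in all arrays of a group, 1 with an intensity trend and robust settings, 6 with the replicate block and 2 to 5 when each array was left out. Without both arrays numbered 6 of the groups labelled T it was 2. The filters and single probe sets change the number of tests adjusted for, and for the other settings the cause was not tested. For the difference between these changes 6 members were called, and 5 to 8 when each array was left out. In the arrays labelled B, same-numbered arrays correlated with r = -0.06, 0.06 and 0.25, or with -0.12, -0.02 and -0.0 without the sex-linked genes. Whether these numbers pair the arrays was not settled. The block changed no member's call for activated B minus resting B. 

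Low levels limit what the arrays labelled T show. On those labelled resting T, 5 of 10 members had a mean at or below background, namely Cd3d, Cd247, Cd4, Themis and Cd6. On those labelled activated T there were 2 of 10, Cd3d and Themis. The calls of Cd3d, Cd247, Cd4, Themis and Cd6 that use the arrays labelled resting T thus rest in part on values at the floor. So do the calls of Cd3d and Themis that use the arrays labelled activated T.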
